A study of Mus musculus with 12 samples.

Results

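The nuclear-encoded subunits of the respiratory chain were followed in nuclear RNA of adult mouse cardiomyocytes with and without an active form of the transcriptional co-activator YAP. The genes were taken by symbol: the Nduf subunit names of complex I (Nduf followed by a, b, c, s or v and a number), Sdha to Sdhd, names beginning with Uqcr, Cox4 to Cox8 and Atp5, with Cyc1 and Cycs. Symbols of pseudogenes (ending in -ps or in -ps and a number) and of antisense genes were left out. The rule gave 86 genes of the 46983 symbols counted, and 84 of them passed the filter on low counts. Cox7b2 had no count in any library and Cox8c had 1 count, in control library 1. A few genes carry such a symbol without being a structural subunit, among them Atp5sl, now named Dmac2.

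Cardiomyocyte nuclei had been caught on beads through the centrosomal protein PCM1, which sits around the nucleus of these cells. Control mice carried Myh6-MCM, a tamoxifen-inducible Cre driven by the heart muscle myosin promoter Myh6, and the YAP5SA mice were Yap5SA+/tg; Myh6-MCM. In YAP5SA, serines through which the Hippo pathway inhibits YAP are replaced by alanine. Both groups were adult and received tamoxifen, so the Cre and the drug were shared and the transgene was the difference. There were 2 libraries per group, and the labels name no separate animals for them. The p-values therefore cover the spread among these libraries alone, and that spread may be technical.

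The respiratory chain sits in the inner mitochondrial membrane. Complexes I and II take electrons from NADH and succinate, complex III passes them to cytochrome c, complex IV hands them to oxygen, and complex V, the ATP synthase, uses the proton gradient to make ATP. Most subunits are encoded in the nucleus and imported as proteins, whereas a small number of central ones are encoded by mitochondrial DNA. The heart depends on this pathway for nearly all of its ATP, and heart and skeletal muscle use muscle forms of several complex IV subunits in place of the forms found in most tissues.

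The libraries held 10927396 and 7850661 counts in the controls and 15012122 and 12806949 counts in the YAP5SA libraries. A count of 0 allows up to 3 counts, or 0.202 to 0.397 CPM (counts scaled to a TMM-adjusted library size of 1000000) depending on the library, for counting error only. The 2 control libraries differed from each other more than the YAP5SA libraries did, with a chi-square per gene of 54.5 against 13.7. Over 17715 tested genes, edgeR's quasi-likelihood test with Benjamini-Hochberg adjustment at 0.05 called 553 genes (3.12%) higher and 177 genes (0.999%) lower in YAP5SA. Adjusted p-values below are from this test unless another is named.

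Of the 84 tested subunit genes, 1 rose past the threshold, Cox6b2, and 0 fell, against 3.12% and 0.999% of all tested genes. DESeq2 called 2 higher, Cox6b2 and Cox7a2, and 0 lower, against 5.49% and 2.73% of all genes it tested. The test limma-voom called 1 higher and 0 lower, against 3.12% and 0.903%. Without a filter on low counts, 2 were called higher, against 5.65%, and 1 lower, Ndufa4l2, against 5.53%. At an unadjusted p under 0.05, 14 subunit genes (16.7%) were lower and 2 (2.38%) were higher, against 10.9% and 12.7% of all tested genes. The median log2 fold change of the subunit genes was -0.26 and that of all tested genes -0.06. The fitted change was below 0 for 73 of the 84 (86.9%), against 54.3% of all tested genes. This number varied with the setting. It was 69 with limma-voom and with scaling by library totals, and 69 of 85 with DESeq2. Under a stricter filter it was 77 of 83. With a library left out it ran from 60, without control 2, to 74, without control 1 or YAP5SA 2.

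In 50 of the 84 subunit genes (59.5%) both YAP5SA libraries lay below both controls, against 28.3% of all tested genes. In 6 (7.14%) both lay above, against 28.1%, and these were Atp5g2, Cox6a1, Cox6b2, Cox7a2, Cox8a and Ndufs8. Scaling by library totals in place of the TMM factors gave 44 below and 4 above, against 26.14% and 28.84%, and scaling by the median of ratios gave 45 below and 5 above, against 28.02% and 28.15%. Summed over all members, the level was 9317 and 9809 CPM in the controls and 7240 and 8101 CPM in the YAP5SA libraries. The fitted changes ran from -1.49 to 3.55, and only 2 genes, Ndufa4l2 and Cox6b2, were beyond 2-fold in either direction. In bulk nuclei, fewer cells of a type and less RNA per cell cannot be told apart.

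**Figure D1:**
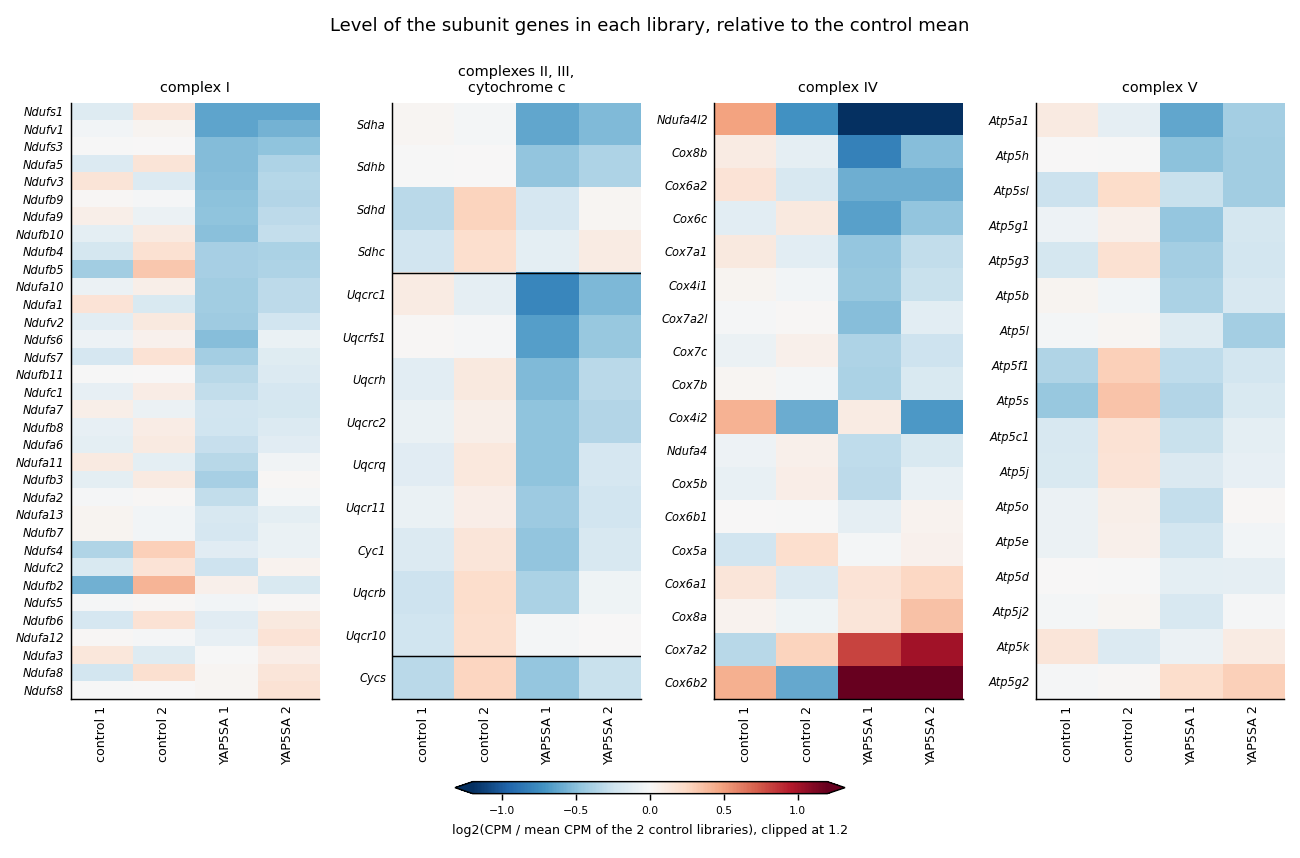
Level of the tested subunit genes reported here (rows, in panels by complex) in each of the 4 libraries (columns) as the log2 ratio of its CPM to the mean CPM of the 2 controls, with the color clipped at 1.2 in either direction. Most rows are blue in both YAP5SA columns, while Cox7a2 and Cox6b2 are red there.

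The fitted change varied with the count level of a gene. Among the 21 subunit genes with the highest mean level, 116 to 1089 CPM, the median log2 fold change was -0.41. It was -0.28 and -0.21 in the next groups of 21 genes and -0.10 in the 21 with the lowest levels. Across the 84 genes Spearman's rho between mean level and log2 fold change was -0.38, while over 13350 protein-coding genes it was 0.12. These are descriptions across genes that share libraries, and genes are not independent replicates.

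Complex I, the NADH dehydrogenase, had 35 tested genes, of which 31 had a fitted change below 0, with a median of -0.24. In 22 both YAP5SA libraries lay below both controls, and in 1, Ndufs8, both lay above; the shares of 28.3% and 28.1% over all tested genes are the background of such counts in every complex. Its 7 nuclear-encoded core subunits, which hold the flavin and iron-sulfur centers and the quinone site, had a median log2 fold change of -0.50, and the 28 accessory subunits -0.20. This grouping follows textbook roles and was not tested.

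Ndufv1 carries the flavin that accepts electrons from NADH. It measured 164 and 171 CPM in the controls and 108 and 113 CPM in YAP5SA (log2 fold change -0.60, SE 0.157, adjusted p = 0.0992). Ndufs1, the largest subunit of the NADH module, measured 189 and 233 CPM in the controls and 136 and 136 CPM in YAP5SA (log2 fold change -0.63, SE 0.183, adjusted p = 0.121). In both the groups did not overlap, and neither passed the threshold.

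Not every core subunit had this pattern. Ndufs8, a core subunit with iron-sulfur centers, measured 32.6 and 32.9 CPM in the controls and 33.3 and 36.9 CPM in YAP5SA, a log2 fold change of 0.10. Ndufs7, its neighbor in the electron path, measured 44.9 and 58.2 CPM in the controls and 38.9 and 46.6 CPM in YAP5SA, with overlapping groups and a log2 fold change of -0.27. The accessory subunit Ndufs5 was nearly level, with 9.78 and 9.91 CPM in the controls and 9.64 and 9.95 CPM in YAP5SA.

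**Figure D2:**
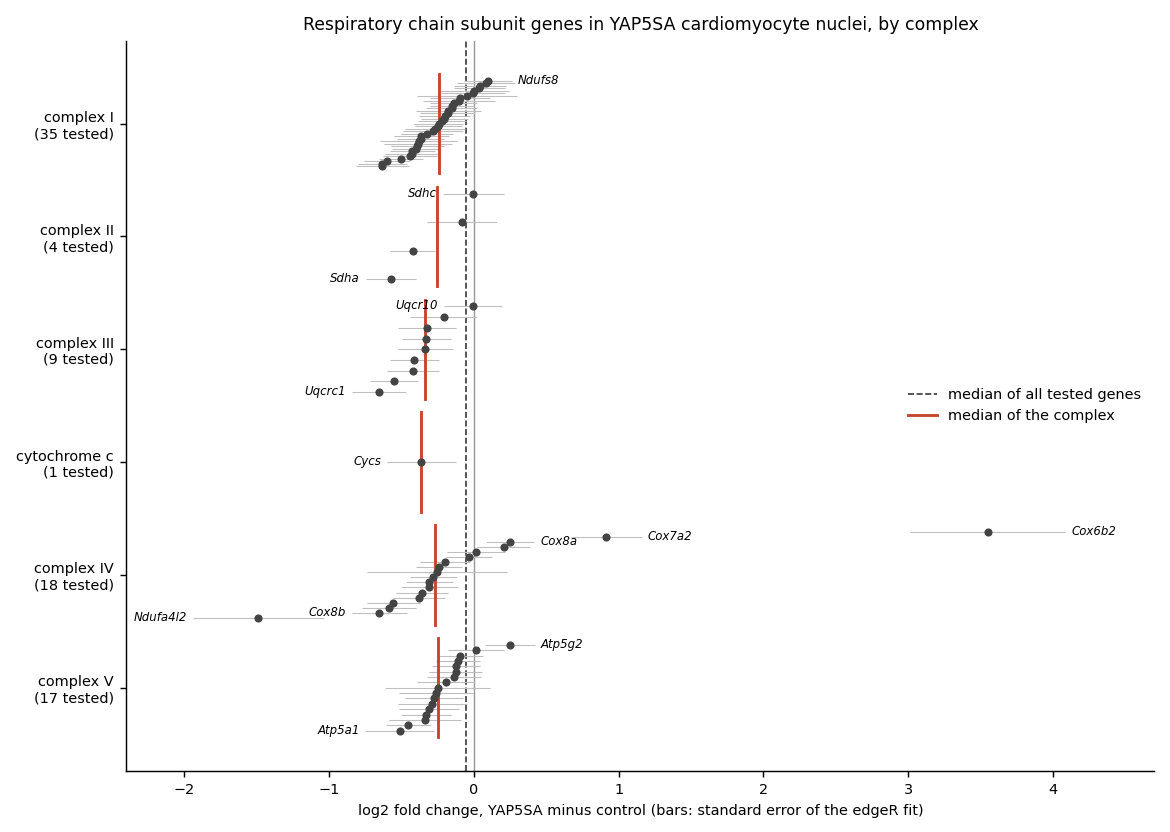
Fitted log2 fold change of each of the 84 tested subunit genes (points, horizontal axis) by complex, with the standard error of the edgeR fit as bars. The red line of each complex, at -0.24 to -0.36, lies left of the dashed median of all tested genes at -0.06, and Cox6b2 at 3.55 stands apart on the right.

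Complex II, succinate dehydrogenase, is encoded wholly in the nucleus. Its catalytic flavoprotein Sdha measured 314 and 304 CPM in the controls and 201 and 215 CPM in YAP5SA (log2 fold change -0.57, SE 0.173, adjusted p = 0.131). The iron-sulfur subunit Sdhb measured 141 and 141 CPM in the controls and 101 and 109 CPM in YAP5SA (log2 fold change -0.42, SE 0.156, adjusted p = 0.186). The membrane anchors did not separate the groups. Sdhc measured 98.3 and 132 CPM in the controls and 106 and 124 CPM in YAP5SA, a log2 fold change of -0.0034. Sdhd measured 71.0 and 107 CPM in the controls and 77.2 and 90.3 CPM in YAP5SA, a log2 fold change of -0.08. The difference between the catalytic and anchor genes was not tested.

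All 9 complex III genes, those of the cytochrome bc1 complex, had a fitted change below 0, with a median of -0.33, and 7 of them separated the groups. The core protein Uqcrc1 measured 239 and 208 CPM in the controls and 130 and 153 CPM in YAP5SA (log2 fold change -0.66, SE 0.187, adjusted p = 0.117). The Rieske iron-sulfur protein Uqcrfs1 measured 167 and 163 CPM in the controls and 104 and 120 CPM in YAP5SA (log2 fold change -0.55, SE 0.167, adjusted p = 0.132). Neither passed the threshold, although the groups lay well apart in both. Cyc1, the cytochrome c1 subunit, measured 139 and 172 CPM in the controls and 112 and 136 CPM in YAP5SA, a log2 fold change of -0.33. The small subunit Uqcr10 overlapped between the groups, with 49.0 and 66.4 CPM in the controls and 56.8 and 58.0 CPM in YAP5SA.

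Cycs, the somatic cytochrome c that carries electrons between complexes III and IV, measured 77.3 and 116 CPM in the controls and 69.9 and 80.1 CPM in YAP5SA. The groups overlapped, and the log2 fold change was -0.36 (SE 0.239, adjusted p = 0.406).

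Complex IV, cytochrome c oxidase, had the widest range of changes. Of its 20 genes 18 were tested, 13 had a fitted change below 0, 11 (61.1%) lay below the controls in both YAP5SA libraries and 4 (22.2%) lay above, against 28.3% and 28.1% of all tested genes. Cox4i1, the general form of subunit IV, measured 283 and 270 CPM in the controls and 202 and 229 CPM in YAP5SA (log2 fold change -0.36, SE 0.178, adjusted p = 0.290). Cox5a, another subunit without a muscle form, measured 50.1 and 67.3 CPM in the controls and 57.5 and 60.8 CPM in YAP5SA, so the groups overlapped, with a log2 fold change of 0.01.

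The one subunit gene past the threshold was Cox6b2, a form of subunit VIb known from testis. It had 3 and 1 counts in the controls and 39 and 34 counts in the YAP5SA libraries, or 0.272 and 0.132 CPM against 2.63 and 2.58 CPM. The fitted log2 fold change was 3.55 (SE 0.536, adjusted p = 0.0373), and it passed the low-count filter only through the YAP5SA libraries. From the summed counts, 4 against 73, the ratio of YAP5SA to control, scaled by the TMM-adjusted library sizes, was 12.1 (95% exact interval 4.54 to 45.7, counting error only). Its general form Cox6b1 measured 102 and 102 CPM in the controls and 94.2 and 105 CPM in YAP5SA, a log2 fold change of -0.03. Per kilobase of exon, Cox6b1 was 635 times the level of Cox6b2 in the controls and 58.9 times in YAP5SA by all annotated exons. By basic transcripts it was 487 and 45.1 times. The single libraries gave 503 and 802 times in the controls and 55.4 and 62.5 times in YAP5SA by all annotated exons. The control values rest on the 3 and 1 counts of Cox6b2 plus 0.5, so they are imprecise. The call was lost without either YAP5SA library (adjusted p = 0.263 without library 1 and 0.412 without library 2).

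Complex IV offered 6 pairs of alternative forms of a subunit, of which Cox6a, Cox7a and Cox8 each have a muscle form and a general form. The promoters of the Cox7a and Cox8 pairs and of Cox6b2 are shown because the forms differ in their values within one complex. Each is the 250 bases before the RefSeq start on GRCm38.p6, read 5′ to 3′ in the gene's direction, with every CG dinucleotide in capitals.
Cox7a1 (chr7:30183921-30184170, plus strand): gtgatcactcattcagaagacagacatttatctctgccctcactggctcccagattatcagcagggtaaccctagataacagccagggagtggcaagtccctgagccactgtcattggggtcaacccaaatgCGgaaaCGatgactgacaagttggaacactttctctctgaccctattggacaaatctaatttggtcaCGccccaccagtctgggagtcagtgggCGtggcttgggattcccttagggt
Cox7a2 (chr9:79759854-79760103, minus strand): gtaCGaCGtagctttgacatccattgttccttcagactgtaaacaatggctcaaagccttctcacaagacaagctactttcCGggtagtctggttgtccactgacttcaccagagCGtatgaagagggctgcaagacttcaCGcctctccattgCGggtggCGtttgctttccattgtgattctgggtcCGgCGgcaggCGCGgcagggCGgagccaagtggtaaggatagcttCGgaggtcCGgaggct
Cox8b (chr7:140900447-140900696, minus strand): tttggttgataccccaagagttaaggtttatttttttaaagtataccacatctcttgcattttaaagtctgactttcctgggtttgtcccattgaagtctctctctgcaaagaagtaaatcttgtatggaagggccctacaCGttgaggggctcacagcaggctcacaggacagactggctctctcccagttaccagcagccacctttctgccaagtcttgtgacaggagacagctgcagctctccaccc
Cox8a (chr19:7217617-7217866, minus strand): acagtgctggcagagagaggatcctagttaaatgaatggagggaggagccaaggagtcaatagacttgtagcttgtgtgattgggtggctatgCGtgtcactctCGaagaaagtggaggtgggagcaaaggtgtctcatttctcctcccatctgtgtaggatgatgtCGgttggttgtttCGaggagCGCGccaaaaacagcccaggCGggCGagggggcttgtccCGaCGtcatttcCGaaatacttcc
Cox6b2 (chr7:4753095-4753344, minus strand): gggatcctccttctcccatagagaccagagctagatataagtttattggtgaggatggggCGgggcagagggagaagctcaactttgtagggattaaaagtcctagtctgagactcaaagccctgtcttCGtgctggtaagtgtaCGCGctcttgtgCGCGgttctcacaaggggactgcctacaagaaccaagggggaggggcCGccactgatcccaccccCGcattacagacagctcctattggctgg

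The muscle-form promoters shown held few CG dinucleotides, 4 in Cox7a1 and 1 in Cox8b, against 14 in Cox7a2 and 11 in Cox8a, and Cox6b2 held 8. Such low numbers were not particular to muscle forms, since Ndufc2 also held 4 and Cox7b and Uqcr10 held 5. The muscle form Cox6a2 had no matched promoter. Among the 69 tested subunit genes with a promoter in the table, Cox8b had the fewest, and the median was 14, beside 15 over 11162 tested genes. For 5 motifs, one spelling each was searched on both strands of the 250 bases, and none of the promoters shown held any. Cox6a1, the general form of subunit VIa, whose promoter is not shown, held the NRF1 spelling at 162 and 117 bases before its start and had 26 CG dinucleotides. They were TCAAGGTCA for the estrogen-related receptors, GCGCA, any base and GCGC for NRF1, CCGGAAGT for ETS factors, AAGATGGCG for YY1 and GGAATG for TEAD, the DNA-binding partners of YAP. NRF1, a regulator of respiratory genes, had its spelling in 13 of the 69 (18.8%) and in 8.42% of tested genes. The TEAD spelling stood in 7 (10.1%) of the subunit promoters and in 13.4% of tested genes. A match is a description of letters and not a binding site.

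Within the 3 muscle pairs the general form was higher relative to the muscle form in YAP5SA. The general form Cox7a2 measured 51.2 and 77.9 CPM in the controls and 113 and 130 CPM in YAP5SA (log2 fold change 0.91, SE 0.245, adjusted p = 0.105). DESeq2 called it higher (adjusted p = 0.0346), so its call depends on the test. Its muscle form Cox7a1 measured 58.2 and 49.0 CPM in the controls and 38.9 and 43.6 CPM in YAP5SA (log2 fold change -0.38, SE 0.179, adjusted p = 0.271). The count ratio of Cox7a2 to Cox7a1 was 0.879 and 1.59 in the controls and 2.90 and 2.98 in YAP5SA, 2.49-fold higher on average.

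The general form Cox8a measured 51.6 and 48.4 CPM in the controls and 55.3 and 63.6 CPM in YAP5SA, a log2 fold change of 0.25. Its muscle form Cox8b measured 63.0 and 54.6 CPM in the controls and 33.6 and 41.2 CPM in YAP5SA (log2 fold change -0.65, SE 0.189, adjusted p = 0.121). The ratio of Cox8a to Cox8b was 0.819 and 0.886 in the controls and 1.64 and 1.55 in YAP5SA, 1.87-fold higher. The ratio was below 1 in both controls and above 1 in both YAP5SA libraries.

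Cox6a1, the general form of subunit VIa, measured 45.2 and 36.5 CPM in the controls and 45.8 and 48.6 CPM in YAP5SA, a log2 fold change of 0.21. Its muscle form Cox6a2 measured 114.6 and 89.4 CPM in the controls and 68.1 and 67.8 CPM in YAP5SA (log2 fold change -0.59, SE 0.186, adjusted p = 0.143). The ratio of Cox6a1 to Cox6a2 was 0.395 and 0.409 in the controls and 0.672 and 0.717 in YAP5SA, 1.73-fold higher. Exons of Cox6a2 overlap those of Itgad in the annotation, and it is unknown here whether the counting used strand.

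**Figure D3:**
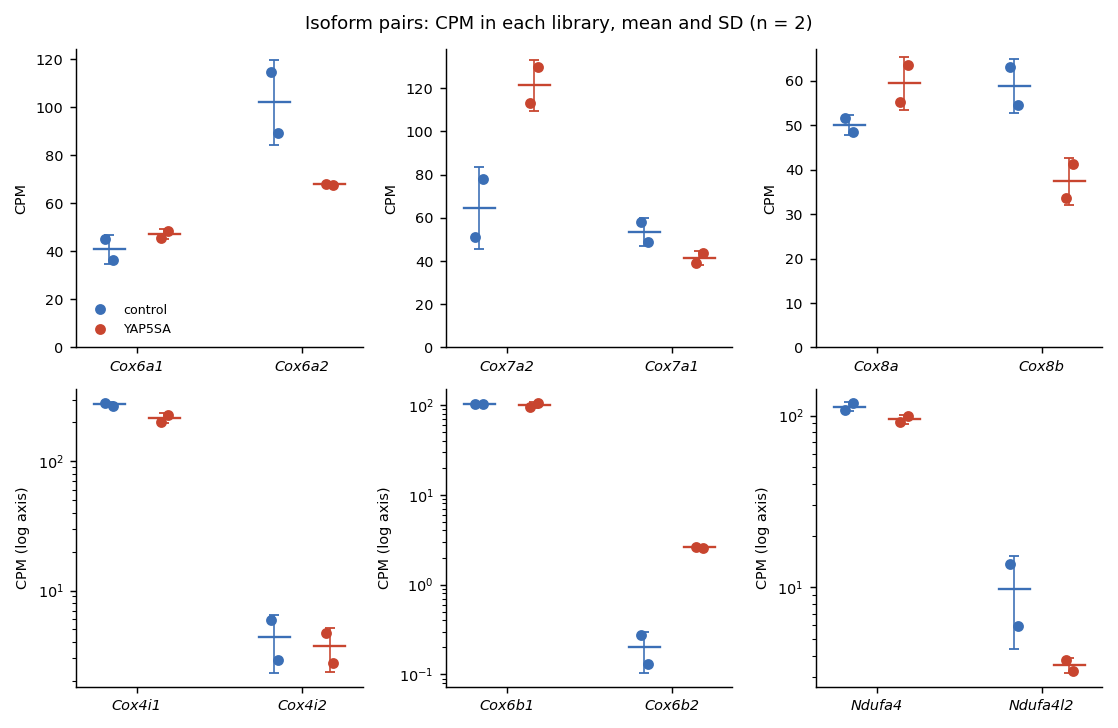
Level in CPM of both genes of each pair of alternative complex IV forms, one point per library. Both YAP5SA points of Cox7a2, at 113 and 130 CPM, lie above the controls at 51.2 and 77.9 CPM, while those of Cox7a1, Cox6a2 and Cox8b lie below their controls.

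The other 3 pairs were compared in the same way. Cox4i1 to Cox4i2, the form associated with low oxygen in lung, overlapped between the groups: Cox4i2 measured 5.89 and 2.91 CPM in the controls and 4.72 and 2.73 CPM in YAP5SA. Ndufa4, a subunit now placed in complex IV, measured 108 and 118 CPM in the controls and 91.2 and 99.6 CPM in YAP5SA, a log2 fold change of -0.24. Its relative Ndufa4l2, known as a target of the hypoxia-inducible factor, measured 13.7 and 5.95 CPM in the controls and 3.77 and 3.27 CPM in YAP5SA (log2 fold change -1.49, SE 0.454, adjusted p = 0.133). The control libraries differed more than 2-fold in this gene, whose exons overlap those of Shmt2 on the other strand. The ratio of Ndufa4 to Ndufa4l2 was 2.17-fold higher in YAP5SA, a log2 difference of 1.12 that was 0.46 without control 1 and 1.77 without control 2. The log2 fold change of Ndufa4l2 was -0.74 without control 1 and -1.92 without control 2.

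Of the 6 pair ratios, 5 did not overlap between the groups and gave an exact two-sided permutation p of 0.333, the smallest that 2 libraries against 2 allow (adjusted over the 6 pairs, 0.4). The Cox4i1 to Cox4i2 ratio gave 0.667. The design cannot reach 0.05 for such a ratio.

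Counts grow with gene length, so the forms were also compared per kilobase of exon. By the whole annotation and by its basic transcripts, the group mean ratio of Cox7a2 to Cox7a1 per length was 0.669 and 0.959 in the controls and 1.67 and 2.39 in YAP5SA. The ratio of Cox8a to Cox8b per length was 0.496 and 0.558 in the controls and 0.927 and 1.04 in YAP5SA. For Cox8 the muscle form was the higher per length in both controls, and the forms were close in YAP5SA. For Cox7a the controls differed by the transcripts counted: control 1 gave 0.498 and 0.713, and control 2 gave 0.899 and 1.29, so in control 2 the general form was the higher by basic transcripts. In both YAP5SA libraries Cox7a2 was the higher by either length. Cox6a1 to Cox6a2 per length was 0.389 and 0.478 in the controls and 0.672 and 0.826 in YAP5SA.

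**Figure D4:**
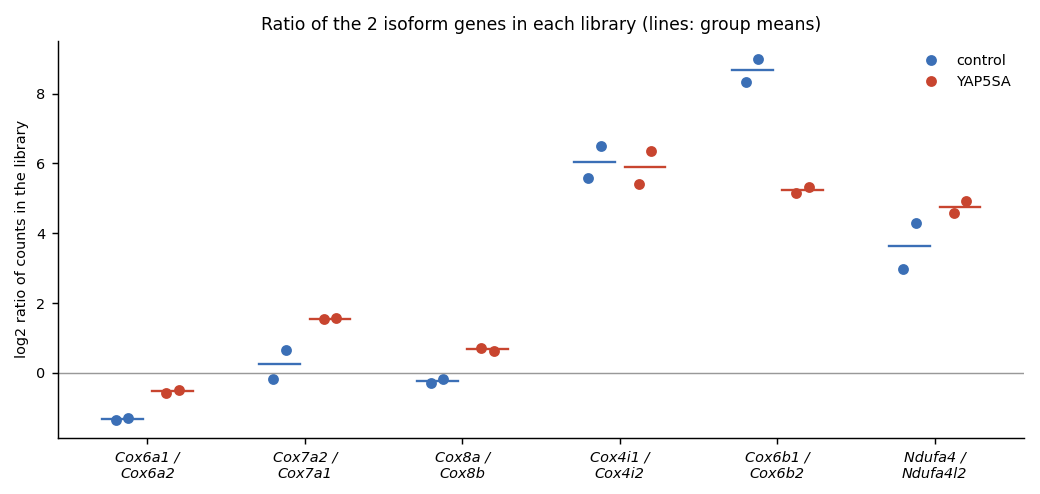
Log2 ratio of the counts of the first to the second form in each pair, one point per library. For Cox7a, Cox8 and Cox6a both YAP5SA points lie above both control points, by 1.32, 0.90 and 0.79 on average, and for Cox4i the groups overlap.

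Complex V had 17 tested genes, with a median log2 fold change of -0.25. Of these 15 had a fitted change below 0, 8 separated the groups downward and 1, Atp5g2, upward. The catalytic beta subunit Atp5b measured 1227 and 1167 CPM in the controls and 919 and 1044 CPM in YAP5SA (log2 fold change -0.29, SE 0.241, adjusted p = 0.514). The alpha subunit Atp5a1 measured 1057 and 911 CPM in the controls and 638 and 741 CPM in YAP5SA (log2 fold change -0.51, SE 0.237, adjusted p = 0.264). The gamma subunit Atp5c1, the rotating shaft, measured 186 and 239 CPM in the controls and 176 and 196 CPM in YAP5SA, with overlapping groups and a log2 fold change of -0.19. Atp5h, the d subunit of the peripheral stalk, had the smallest p of the complex, with 151 and 150 CPM in the controls and 107 and 113 CPM in YAP5SA (log2 fold change -0.45, SE 0.155, adjusted p = 0.163).

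Subunit c, which forms the rotating ring, is made from 3 genes that encode the same mature protein. Atp5g1 measured 124 and 135 CPM in the controls and 94.2 and 112 CPM in YAP5SA, a log2 fold change of -0.33. Atp5g3 measured 191 and 251 CPM in the controls and 167 and 189 CPM in YAP5SA, a log2 fold change of -0.31. Atp5g2 measured 19.9 and 20.2 CPM in the controls and 23.2 and 24.5 CPM in YAP5SA, a log2 fold change of 0.25. None of these passed the threshold, and the difference between the 3 genes was not tested.

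How many subunit genes were called depended on which control entered. Without control library 1, 37 subunit genes were called lower and 3 higher, against 17.4% and 18.8% of all tested genes. Without control library 2, 20 were called lower and 3 higher, against 18.6% and 19.7%. The lone control is then assumed to vary like the YAP5SA libraries, which differ less. Direction could also depend on the control. Ndufb2 measured 14.3 and 28.3 CPM in the controls and 22.2 and 18.8 CPM in YAP5SA. Its log2 fold change was negative without control library 1 and positive without control library 2. Ndufb2 was among the called genes in both of these fits, in opposite directions. Across the alternative settings it ran from -0.46 to 0.55. Of the genes called lower, 14 were shared, 37.8% of the first list and 70.0% of the second, among them Atp5a1, Atp5h, Cox6a2, Cox6c, Cox8b, Ndufb9, Ndufs1, Ndufs3, Ndufv1, Sdha, Sdhb, Uqcrc1 and Uqcrfs1. Without either YAP5SA library 0 subunit genes were called in either direction, against 0.362% higher and 0.0266% lower of all genes without library 1 and 0.143% and 0.0% without library 2.

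Subunits encoded by mitochondrial DNA, which are transcribed in the mitochondria and not in the nucleus, were also counted. Of the 13 genes 7 were tested, and the other 6 had at most 5 counts in any library. None of the 7 passed the threshold with edgeR, against 3.12% higher and 0.999% lower of all tested genes. At an unadjusted p under 0.05, 3 (42.9%) were lower, against 10.9%. DESeq2 called 2 lower, against 2.73% of all genes it tested, and limma-voom called 0. The median log2 fold change of the 7 was -0.81. mt-Co1, the catalytic core of complex IV, measured 1484 and 1102 CPM in the controls and 732 and 748 CPM in YAP5SA (log2 fold change -0.81, adjusted p = 0.152). mt-Cytb of complex III measured 526 and 279 CPM in the controls and 175 and 179 CPM in YAP5SA (log2 fold change -1.19, adjusted p = 0.111). Between the controls themselves the median log2 difference of these 7 genes was -0.81 (library 2 minus library 1), the same size as between the groups, and that of the nuclear-encoded subunits was 0.11. Whether RNA from outside the nucleus had a part in the subunit levels was not tested.

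Assembly factors build the complexes without staying in them. Of 43 tested, 1 rose past the threshold and 0 fell, against 3.12% and 0.999% of all tested genes. The median log2 fold change was -0.08. The gene that rose was Coa6, which serves copper delivery to complex IV, with 5.80 and 4.63 CPM in the controls and 14.9 and 13.4 CPM in YAP5SA (log2 fold change 1.43, SE 0.252, adjusted p = 0.0472). Its call was lost without either YAP5SA library (adjusted p = 0.349 without library 1 and 0.423 without library 2).

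Of 18 regulators of mitochondrial gene transcription 1 fell and 0 rose, against 0.999% and 3.12% of all tested genes. Their median log2 fold change was -0.17. Perm1, a muscle regulator that acts with the PGC-1 co-activators and estrogen-related receptors, fell from 64.0 and 85.4 CPM in the controls to 20.96 and 29.8 CPM in YAP5SA (log2 fold change -1.56, SE 0.256, adjusted p = 0.0426). Its call was lost without either YAP5SA library (adjusted p = 0.275 without library 1 and 0.251 without library 2). Ppargc1a, which encodes the co-activator PGC-1 alpha, measured 62.6 and 122 CPM in the controls and 61.0 and 51.9 CPM in YAP5SA (log2 fold change -0.70, adjusted p = 0.274). Esrra, the estrogen-related receptor alpha, measured 40.6 and 78.9 CPM in the controls and 44.5 and 46.2 CPM in YAP5SA (log2 fold change -0.39, adjusted p = 0.507). Ppara, the fatty acid receptor, measured 24.9 and 28.4 CPM in the controls and 19.6 and 17.4 CPM in YAP5SA (log2 fold change -0.53, adjusted p = 0.174). In Esrra both YAP5SA libraries lay between the controls, and in Ppargc1a and Ppara both lay below them.

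**Figure D5:**
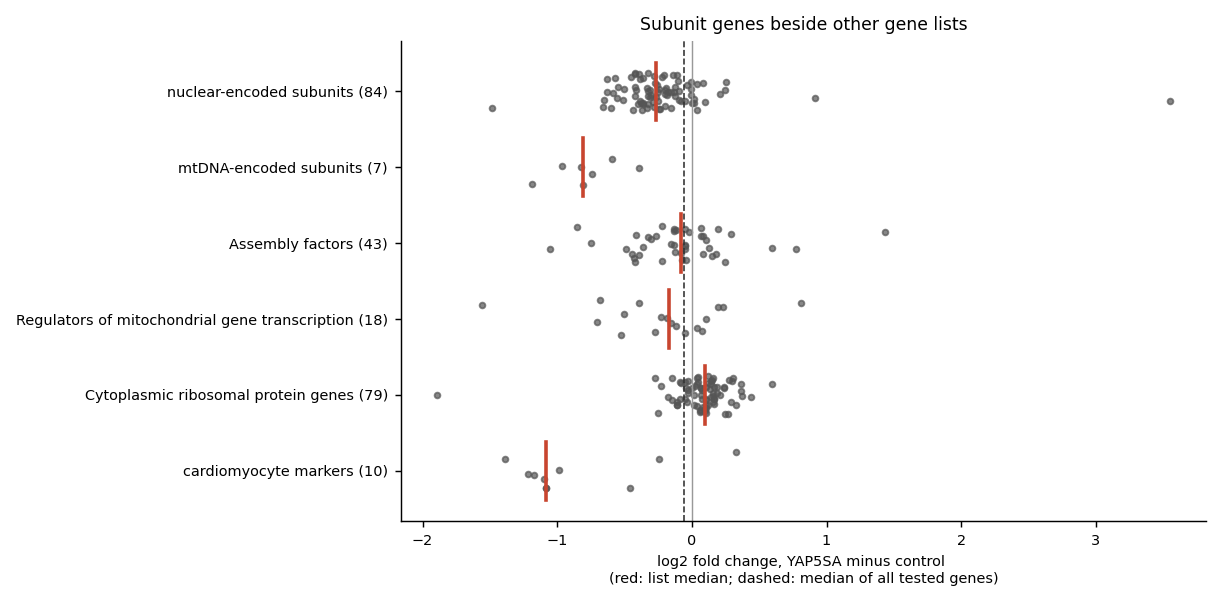
Fitted log2 fold change of each tested gene (points) in the subunit genes and 5 other lists, with each list's median in red. The subunit genes center at -0.26, the mitochondrial DNA genes at -0.81, the cardiomyocyte markers at -1.08 and the cytoplasmic ribosomal protein genes at 0.10.

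The tissue label was checked against markers of heart cells. For the counts in this and the next paragraph, the edgeR background over all tested genes is 3.12% higher and 0.999% lower. At an unadjusted p under 0.05 it is 12.7% and 10.9%. With DESeq2 it is 5.49% and 2.73%, and with limma-voom 3.12% and 0.903%. All 10 cardiomyocyte markers were tested. With edgeR none passed the threshold and 5 were lower at an unadjusted p under 0.05, while DESeq2 called 5 lower and limma-voom 0. Their median log2 fold change was -1.08, with summed levels of 33145 and 67332 CPM in the controls and 23569 and 25151 CPM in YAP5SA. The fitted change was below 0 for 9 of the 10 and above 0 for 1. Myh6, the heart myosin whose promoter drives the Cre in both groups, measured 4832 and 6614 CPM in the controls and 2144 and 2240 CPM in YAP5SA, a log2 fold change of -1.38. Pcm1, whose protein was used to catch the nuclei, went the other way. It measured 184 and 240 CPM in the controls and 250 and 282 CPM in YAP5SA. Of 12 macrophage markers 5 rose and 0 fell. The fitted log2 fold change was above 0 for 11 of them and below 0 for 1, at -1.42. The summed level of the 12 was 865 and 581 CPM in the controls and 1382 and 1667 CPM in YAP5SA. Of 10 endothelial markers 2 fell, 0 rose, and the sums were 2029 and 1306 CPM against 1009 and 934 CPM.

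Of the 8 smooth muscle and pericyte markers 0 passed the threshold with edgeR, 4 were lower at an unadjusted p under 0.05, DESeq2 called 2 lower and limma-voom 1. The sums were 1699 and 1524 CPM in the controls and 953 and 881 CPM in YAP5SA. Of 8 fibroblast markers 1 rose and 0 fell, and the sums were 6823 and 5498 CPM in the controls and 5539 and 6835 CPM in YAP5SA, with overlapping groups and a median log2 fold change of -0.05. No marker of any of these lists was at 0 over all libraries. Their part in the subunit levels was not tested. The 79 tested genes of cytoplasmic ribosomal proteins, which share high expression and short transcripts with many subunit genes, had a median of 0.10. With edgeR and limma-voom 0 of these were called, 1 was higher and 1 lower at an unadjusted p under 0.05, and DESeq2 called 1 lower. For 5 RNAs known to stay in the nucleus the median was -0.54, with 0 called by edgeR, DESeq2 or limma-voom and 0 at an unadjusted p under 0.05. Both lists differed more between the controls than between the groups. The median log2 difference, control library 2 minus library 1, was 1.43 for the nuclear RNAs and -0.45 for the ribosomal protein genes.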

How the data were processed

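Nuclear RNA of 4 libraries, 2 per group, was analysed, and the ATAC-seq and 4C-seq samples were not used here. Per the labels' protocols, RNA from PCM1-bound nuclei was made into stranded paired-end libraries after ribosomal RNA removal, and the authors mapped reads to mm10 with STAR and tested with DESeq2. The deposited values are raw counts per gene symbol. Not given in the sources used here are the counting program, its strand setting, the annotation and the versions.

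Genes passing filterByExpr (minimum count 10) were scaled by TMM and tested with edgeR 4.0.16 (quasi-likelihood, Benjamini-Hochberg over 17715 genes, threshold 0.05) in R 4.3.3, without a replicate block. CPM uses the TMM effective library sizes (total times TMM factor). Alternatives were DESeq2 1.42.0, limma-voom (limma 3.58.1), other scalings and filters (at least 50 counts in 2 libraries, or none), a replicate block and leaving out each library. Ratios of forms used counts plus 0.5. Same-numbered libraries were not taken as pairs, since the labels give only numbers.

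Members and gene lists were chosen with earlier results of these data known. Genes named were those past the threshold, the smallest p of each complex, the alternative forms, a list of core and catalytic subunits, and the largest rise and fall. Others named for contrast (Ndufs5, Ndufs7, Ndufs8, Sdhc, Sdhd, Uqcr10 and the Atp5g genes) were chosen after their values were seen. So were Ndufb2 and Ndufb5, named for a change of sign between settings. A gene that the rule names is not reported here.

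Exon lengths and overlaps come from GENCODE M21, which matched 84 of 86 members, and 25 members share exon sequence with a gene on the other strand and 4 on the same strand. By blastn 2.17.0, 26 of 84 annotated members match a transcript of another gene at 95% identity or more over at least 150 bases, so their counts are uncertain. None of Cox6a1, Cox6a2, Cox6b2, Cox7a1, Cox7a2, Cox8a and Cox8b is among these. Of the genes named above, Atp5b, Atp5c1, Atp5g1, Atp5g2, Atp5h, Cox6c, Cox7b, Cycs, Ndufb2, Ndufs3, Ndufs5 and Uqcr10 are. Promoters are from RefSeq (GRCm38.p6), which matched 70 of the 86 members.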

Additional observations from a re-analysis of the deposited data

How the results depend on the processing

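Over all tested genes 553 rose and 177 fell, and DESeq2 gave 1060 and 527, no low-count filter 1727 and 1689, and the replicate block 321 and 112. Leaving out 1 library gave 27 to 3749 rising and 0 to 3554 falling. Subunit genes called higher numbered 2 with DESeq2 (Cox6b2 and Cox7a2, against 5.49% of all genes) and 2 without a filter, 0 with the replicate block (against 1.81%), 0 under the stricter filter (3.89%), where Cox6b2 is no longer tested, and 0 to 3 with a library left out. Those called lower numbered 1 without a filter (Ndufa4l2, against 5.53%) and 0 to 37 with a library left out. The subunit median ran from -0.34 to -0.14 with a library left out, lowest without YAP5SA library 2 and highest without control library 2. Same-numbered libraries deviated together with a correlation of -0.10 over all genes and 0.24 over the subunit genes, so the numbers are not taken as pairs. The block ended the calls of Cox6b2 (adjusted p = 0.0575) and Coa6 (0.0752) and changed no other call among the named members. A crossed pairing, chosen after seeing the data, gave 328 rising and 103 falling genes, with 0 subunit genes rising. Signs reversed in some settings, and not only for values near 0. In the main fit Cox4i2 was at -0.25 and Atp5c1 at -0.19. Ndufb5, at -0.38 in the main fit, reached 0.069 in 1 of the alternative settings. With a library left out Atp5c1 ran from -0.35 to 0.037 (without control 2), Cox4i2 from -0.66 to 0.38 (0.11 without YAP5SA 2, 0.38 without control 1), Cox5a from -0.18 to 0.28 (-0.0071 without YAP5SA 2, -0.18 without control 1) and Cox6b1 from -0.090 to 0.067 (0.0014 without control 2, 0.067 without YAP5SA 1). Cox5a was -0.044 under the stricter filter, and Cox6b1 was 0.018 with DESeq2 and 0.012 without a filter. The Cox4i1 to Cox4i2 ratio difference ranged from -0.63 to 0.33 and reversed to 0.31 without control 2 and 0.33 without YAP5SA 1. With a library left out the log2 ratio differences ran from 0.89 to 1.74 for Cox7a2 to Cox7a1, 0.85 to 0.96 for Cox8a to Cox8b, 0.74 to 0.84 for Cox6a1 to Cox6a2, 0.46 to 1.77 for Ndufa4 to Ndufa4l2 and -3.77 to -3.10 for Cox6b1 to Cox6b2. A pseudocount of 5 moved the last from -3.43 to -2.00, since Cox6b2 had 3 and 1 counts in the controls. Otherwise the cause was not tested. Scaling by the median of ratios, library totals and limma-voom kept the 26 members chosen by the naming rule on their side of the threshold and in their direction. Over all 84 tested subunit genes, the number below 0 was 72, 69 and 69 in these settings, against 73 in the main fit. Some signs of other members therefore did change. Low counts limit the precision for Cox6b2, Cox4i2 and Ndufa4l2, among others.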

Other observations

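Per kilobase of exon, the highest subunit levels were those of Atp5b, Cox4i1 and Atp5a1, by the basic transcripts of the annotation. Atp5b measured 625 CPM per kb in the controls and 512 CPM per kb in YAP5SA, Cox4i1 361 and 282 CPM per kb, and Atp5a1 339 and 238 CPM per kb. By all annotated exons Atp5a1 came before Atp5b, at 314 against 282 CPM per kb in the controls, so the order of these genes depends on the transcripts counted.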
